A study of Mus musculus with 3 samples.

Results

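The cells described here are fibroblasts of mouse abdominal skin in which Ctla2a, Gpx3 and Plac8 together made up at least 1% of all transcript tags. They numbered 118 of 1156 fibroblasts at gestation day 16 and 0 at the other stages. Members were chosen by measured values: a barcode needed at least 200 detected genes, at most 10% mitochondrial UMIs (unique molecular identifiers, one per captured transcript), at least 1% of UMIs from Col1a1, Col1a2, Col3a1, Dcn and Lum, and at least 1% from Ctla2a, Gpx3 and Plac8. Ccl2, Ccl7 and Tnfaip6 together had to stay under 0.5% and Igfbp2 under 0.2%. The levels of these 12 genes are therefore given as a description.

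Single-cell RNA was profiled from abdominal dermis in 3 libraries of C57BL/6 mice, 8 to 12 weeks of age. All of the mice carried Col1a2creERT2, a tamoxifen-activated recombinase driven by a collagen gene promoter, and R26H2B EGFP, a nuclear green reporter. The NP library was non-pregnant skin taken 48 days after 3 days of tamoxifen, dpc16 was skin at gestation day 16, and dpp42 was skin at day 42 after birth. The mice behind dpc16 and dpp42 received tamoxifen while pregnant. The labels do not say how many mice made up a library, and each stage was 1 library, so no test between stages was possible and every interval below covers counting error only.

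The files held 1330, 4122 and 1196 barcodes for NP, dpc16 and dpp42, with 6031814, 21679047 and 5794940 UMIs. Of these, 1289, 3652 and 1081 cells passed the limits on genes and mitochondrial UMIs. The fibroblast share was 7.84% for NP, 31.6% for dpc16 and 10.2% for dpp42. Members of dpc16 were thus compared with 1038 other dpc16 fibroblasts. These comprised 240 with at least 0.5% of UMIs from Ccl2, Ccl7 and Tnfaip6, called inflammatory here, 85 rich in Igfbp2, and 713 remaining fibroblasts within both limits but under 1% for the marker sum. Libraries shared 2 to 7 barcodes pairwise, and no member carried a shared one. All mice are labelled as carrying the EGFP reporter, yet EGFP transcripts differed between libraries: fibroblasts had 46.1 CPM in NP (CPM are UMIs per 1000000, summed over cells) and 59.5 CPM in dpp42, but 1.34 CPM (7 UMIs) in dpc16, where keratinocytes had 9.57 CPM. In the dpc16 library the reporter was thus nearly undetected in fibroblasts, and it was not used to define them.

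Dermal fibroblasts secrete the collagens, proteoglycans and elastic fibres of skin. They differ by depth: papillary cells lie under the epidermis, reticular and hypodermal cells lie deeper, and adventitial cells surround vessels and fascia. In pregnancy the abdominal skin is stretched as the uterus grows. Ctla2a resembles the propeptide of cathepsins and inhibits cysteine proteases of that family. It is known from activated T cells and from the pregnant uterus. Gpx3 is the secreted glutathione peroxidase, a selenoprotein that reduces peroxides outside cells. Plac8 codes for a small cysteine-rich protein first described in placenta.

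The members were confined to dpc16 among the 3 libraries. The 118 cells were 10.2% (95% Clopper-Pearson interval 8.52 to 12.1%) of dpc16 fibroblasts and 3.23% (2.68 to 3.86%) of all kept dpc16 cells. NP had 0 of 101 fibroblasts, which allows a share of up to 2.97% by a floor of 3 cells and 3.59% by the upper Clopper-Pearson limit. For dpp42, with 0 of 110, these bounds were 2.73% and 3.30%. In NP 54 fibroblasts were inflammatory and 10 more were Igfbp2-rich, so only 37 lay within both limits and could be members. In dpp42 these numbers were 25, 32 and 53, while 831 fibroblasts lay within both limits in dpc16. The bounds are shares of all fibroblasts and would be wider over those within both limits. Only 1 NP fibroblast reached the marker sum, at 1.01%, and the limit on Ccl2, Ccl7 and Tnfaip6 removed it. The highest dpp42 fibroblast stood at 0.768%. A fibroblast had a median of 4125.5 UMIs in dpc16, against 2646 in NP and 2418.5 in dpp42, so the stages differed in depth. After each cell was thinned to 1900 UMIs, dpc16 had 121 members, of which 116 were among the original ones, NP had 1 and dpp42 had 0.

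**Figure D1:**
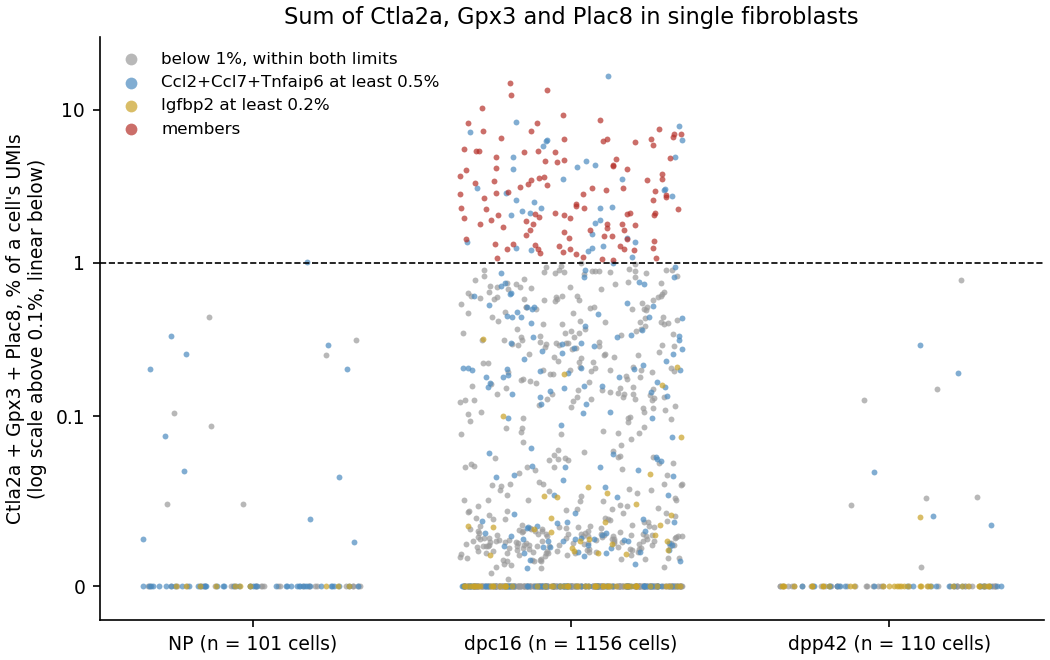
Share of each fibroblast's UMIs from Ctla2a, Gpx3 and Plac8 (vertical axis, logarithmic above 0.1%), by library; each point is 1 cell and the dashed line is the 1% limit. Red members appear in dpc16 alone, inflammatory dpc16 cells (blue) reach sums up to 16.7%, and the single NP cell at the line stands at 1.01%.

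The 1% limit fell inside a continuous range of values. Among 831 dpc16 fibroblasts within the other limits, 528 had under 0.1% of UMIs from the 3 genes. Just outside, 22 cells had 0.8 to 1.0%, with a median of 0.882% and a highest value of 0.9998%. Just inside, 8 cells had 1.0 to 1.2%, with a median of 1.09% and a lowest value of 1.045%. Over all members the sum ran from 1.045% to 14.9% around a median of 2.74%. A limit of 0.5% gave 181 cells and a limit of 2% gave 76.

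Ctla2a carried most of the sum. It supplied 87.8% of the members' UMIs of the 3 genes, Gpx3 supplied 11.1% and Plac8 1.14%. Ctla2a ranged from 0 to 13.7% of a member's UMIs with a median of 2.23%, Gpx3 from 0 to 1.36% with a median of 0.333%, and Plac8 from 0 to 1.15% with a median of 0. The working name of the cells lists 3 genes, yet only 18 members had a UMI of all 3. Plac8 was found in 20 of 118 members, Gpx3 in 104 and Ctla2a in 115. Ctla2a by itself reached 1% in 97 members, Gpx3 and Plac8 together did in 15, 4 cells counted in both, and 10 members reached 1% only when Ctla2a was added to Gpx3 and Plac8 (5 of these 10 had a Plac8 UMI). Members selected without Ctla2a in the sum would number 15, without Gpx3 99 and without Plac8 113. The label therefore describes mainly Ctla2a-rich cells. The 20 members with a Plac8 UMI are described further on.

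Ctla2a (ENSMUSG00000044258, chromosome 13, 60934155 to 60936625, minus strand) stood at 32693 CPM in members, with an exact Poisson interval of 32229 to 33163. In the rest of dpc16 it stood at 7672 CPM in inflammatory fibroblasts, 437 CPM in remaining fibroblasts, 102 CPM in Igfbp2-rich fibroblasts, 898 CPM in endothelial cells, 74.3 CPM in macrophages and 49.3 CPM in keratinocytes. The endothelial class, chosen as blood endothelial, also held lymphatic markers, which summed to 33891 CPM in dpc16 against 6299 CPM for blood endothelial ones. It is therefore read as endothelial cells and not as blood endothelium alone. Members held 65.3% of the Ctla2a UMIs of dpc16 fibroblasts with 11.0% of their total UMIs. After thinning, 97.5% of members and 11.2% of keratinocytes had a Ctla2a UMI (median depths of 4704.5 and 4318.5 UMIs before thinning). Whether the keratinocyte UMIs came from free RNA, from doublets or from the cells themselves was not tested. In NP and dpp42, the endothelial class was the richest in Ctla2a, at 440 CPM (295 to 632) and 384 CPM (301 to 483). Remaining fibroblasts stood at 88 CPM (40.2 to 167, 9 UMIs) and 70.9 CPM (34.0 to 130, 10 UMIs). Over all fibroblasts of a stage Ctla2a was at 5528 CPM in dpc16, 35.4 CPM in NP (10 UMIs) and 42.0 CPM in dpp42 (12 UMIs).

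Gpx3 (ENSMUSG00000018339, chromosome 11, 54902453 to 54910377, plus strand) was less restricted. It stood at 4125 CPM (3961 to 4294) in members, 1467 CPM in inflammatory, 745 CPM in remaining and 115 CPM in Igfbp2-rich dpc16 fibroblasts. The 3 other dpc16 classes lay between 8.14 CPM in keratinocytes and 46.8 CPM in the endothelial class. Unlike Ctla2a, Gpx3 was well detected outside pregnancy, at 425 CPM (353 to 509) over NP fibroblasts and 116 CPM over dpp42 fibroblasts, against 1226 CPM over dpc16 fibroblasts. Cells with at least 2 Gpx3 UMIs after thinning were 10 of 101 fibroblasts in NP, 334 of 1156 in dpc16 and 6 of 110 in dpp42. Of these, 1 cell in NP, 157 in dpc16 (47.0%, interval 41.5 to 52.5%) and 1 in dpp42 also had at least 2 Ctla2a UMIs. In 10 and 6 cells a share cannot be set firmly: the intervals run from 0.253 to 44.5% and from 0.421 to 64.1%.

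Plac8 (ENSMUSG00000029322, chromosome 5, 100553725 to 100572245, minus strand) stood at 426 CPM (374 to 483) in members, 64.7 CPM in remaining, 40.9 CPM in inflammatory and 2.56 CPM in Igfbp2-rich dpc16 fibroblasts, and 40.5 CPM in macrophages. NP fibroblasts held 1 Plac8 UMI and dpp42 fibroblasts 0, so the dpc16 level of 94.8 CPM over all fibroblasts was at least 9.04-fold higher than in dpp42 against a floor of 3 UMIs in the group. In dpp42 the gene was seen in macrophages, where 7 UMIs lay in 1 of 4 cells. Within members Plac8 was uneven: 1 cell held 19.5% of its 246 UMIs.

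**Figure D2:**
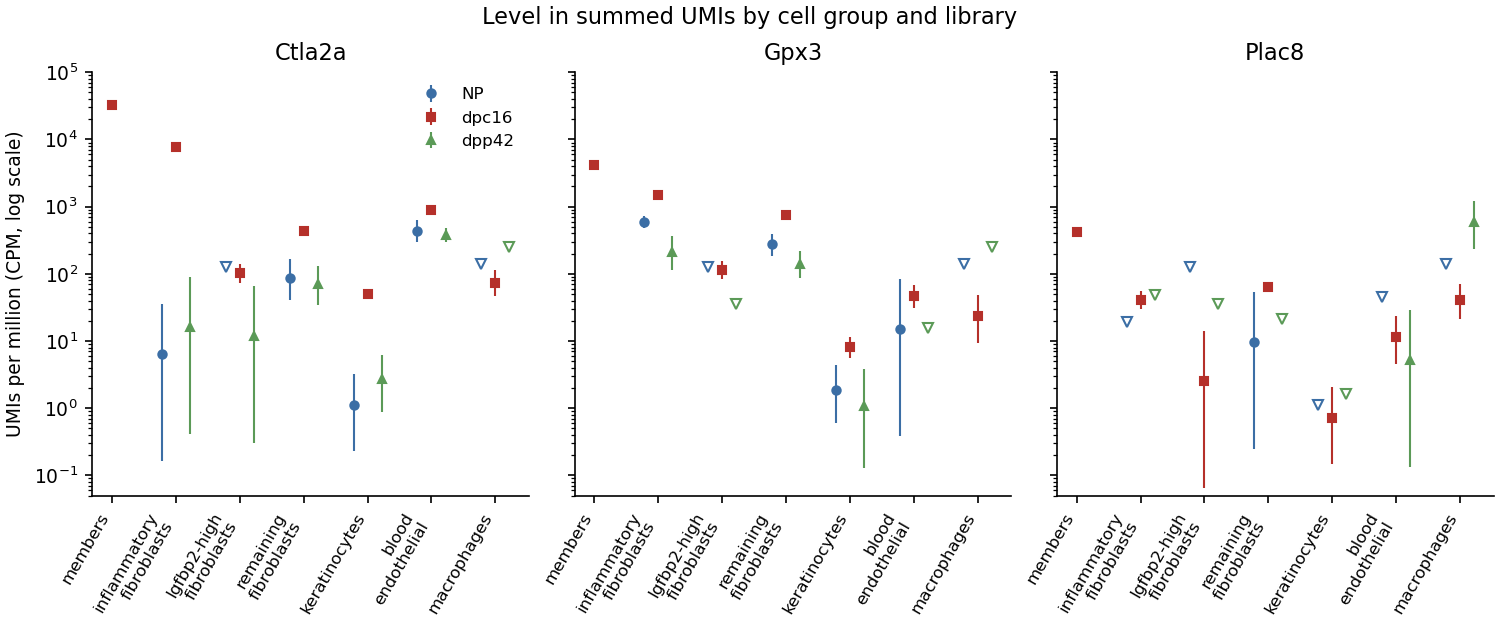
Level of Ctla2a, Gpx3 and Plac8 in CPM (logarithmic axis) in members, 3 other fibroblast groups and 3 other cell classes of each library, with exact 95% Poisson intervals; open triangles mark the floor of 3 UMIs where none was counted. Ctla2a in members, at 32693 CPM, lies above every other group drawn, while Gpx3 is present in NP and dpp42 fibroblasts. The dpc16 inflammatory group includes 41 cells that reached the same marker sum as members (median Ctla2a 2.46% of UMIs against 2.23%). The class labelled blood endothelial also holds lymphatic markers.

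The neighbouring paralog Ctla2b (ENSMUSG00000074874, chromosome 13, 60895350 to 60897447, minus strand) was nearly silent in the same cells. Members held 16 Ctla2b UMIs (27.7 CPM) beside 18878 of Ctla2a, and 56.2% of the 16 lay in 1 cell. Both values are UMI counts from 3′ tags and are not scaled by length. Reads shared between the paralogs could be split or dropped by the counting, so the Ctla2b level is uncertain. The last 300 bases of their longest coding transcripts aligned at 44.0% identity, and how many reads were shared was not tested. The stretches just before both start sites are shown because they are close copies in spite of the difference in level: an alignment of the 250 bases gave 76.5% identity. They are RefSeq sequences of GRCm38.p6, at chr13:60936626-60936875 and chr13:60897448-60897697, read on the minus strand from 5′ to 3′. All 4 genes looked for, Gpx3 and Plac8 included, had an entry, but the RefSeq starts of those 2 differ from the annotated starts and their windows are not printed. Capitals mark, in order, TGTTCT (one arm of a steroid receptor site), TGANTCA (AP-1) and TGACG (one arm of a CRE), searched on both strands.
Ctla2a: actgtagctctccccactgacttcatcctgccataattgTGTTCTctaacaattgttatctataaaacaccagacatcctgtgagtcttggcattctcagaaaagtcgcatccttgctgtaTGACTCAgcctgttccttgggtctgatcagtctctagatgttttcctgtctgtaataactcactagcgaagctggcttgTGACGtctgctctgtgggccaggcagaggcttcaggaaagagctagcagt
Ctla2b: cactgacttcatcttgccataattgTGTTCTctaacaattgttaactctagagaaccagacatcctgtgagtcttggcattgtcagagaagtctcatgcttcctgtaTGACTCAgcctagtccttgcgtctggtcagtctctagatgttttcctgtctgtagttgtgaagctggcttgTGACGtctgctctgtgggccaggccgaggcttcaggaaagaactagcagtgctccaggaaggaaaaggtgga
All 3 motifs were present in both stretches, TGTTCT at 211 and 225 bases before the start, TGANTCA at 129 and 143, and TGACG at 50 and 72. Over 27025 promoters, windows of the same length held TGANTCA in 6.87%, TGTTCT in 16.2% and TGACG in 17.9%. The full steroid receptor palindrome (0.0037% of promoters), the oestrogen receptor palindrome (0.0629%) and the C/EBP-like TTGCNNAA (9.55%) had no match in these 2 windows. These matches describe letters and do not show binding.

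As fibroblasts, the members resembled the other dpc16 fibroblasts in most measured genes. Of 5182 genes measured in members or in the other dpc16 fibroblasts (at least 20 CPM in 1 group and at least 20 UMIs over both), 92.2% lay within 2-fold. At least 2-fold higher were 109 genes, or 2.1%, and at least 2-fold lower were 297, or 5.73%, by size alone and without a test. When the richest cell of each group was left out for each gene, an alternative chosen after seeing the data, 59 were higher and 461 lower. Leaving out 1 of 118 members takes a larger share than leaving out 1 of 1038 others. Ratios tend to fall by this design, so how far the number of higher genes depends on single cells was not tested. The median log2 ratio was -0.15. Col1a1, which the rule used in sum, was at 26795 against 24281 CPM, and the receptors Pdgfra (223 against 216 CPM) and Pdgfrb (133 against 119 CPM), which it did not use, also differed little. Of 10 measured identity genes outside the rule, 0 were 2-fold higher and 3 lower: Thy1, a surface glycoprotein, at 81.4 against 483 CPM, and the collagen VI chains Col6a1 (139 against 477 CPM) and Col6a2 (111 against 341 CPM).

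Markers of endothelial, immune and epidermal cells summed to similar or lower levels in members. Their 12 blood endothelial markers summed to 121 CPM against 112 CPM in the other fibroblasts and 6299 CPM in the endothelial class. Of these, 6 were at 0 in members (Cldn5, Egfl7, Emcn, Tie1, Selp and Esam). Of the 2 measured, Kdr (12 UMIs) was higher at a log2 ratio of 1.425, and Ackr1 lay within 2-fold at 0.795. Schwann and melanocyte markers summed to 50.2 against 44.3 CPM, and the only measured one, Mlana (20 UMIs), was higher at a log2 ratio of 2.18. Macrophage and dendritic markers summed to 76.2 against 386 CPM, with Adgre1 and Cd207 at 0, T and NK markers to 95.2 against 513 CPM (81.4 and 483 CPM of it Thy1, which fibroblasts also express), and keratinocyte markers to 2681 against 4231 CPM. Haemoglobin was higher in members through 1 cell, which held 1198 of the 1238 haemoglobin UMIs of members, and the next cell had 3. After thinning, no member had at least 2 UMIs summed over the proliferation genes, with Tubb5, Stmn1 and Hmgb2 left out. That was 0 of 118, which allows up to 2.54%, against 15 of 1038 other fibroblasts (1.44%, 0.811 to 2.37%). Of the EGFP reporter, members had 0 UMIs and the other dpc16 fibroblasts 7.

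Genes that the rule did not use placed members near each other. Principal components used 1500 variable genes, without the 12 rule genes, Ctla2b, mitochondrial and haemoglobin genes. In these components members made up 41.4% of the 15 nearest fibroblasts of a member, against their share of 10.2% among dpc16 fibroblasts. Remaining fibroblasts made up 41.9% of the neighbours of a member. For 51 members most neighbours were members, and for 10 none were. Remaining fibroblasts had 7.53% members among their neighbours and Igfbp2-rich ones 0.784%. The 41 inflammatory fibroblasts that reached 1% for the marker sum had 24.1%. Since the other genes can follow the rule genes in the same cells, these shares describe how alike the cells were and are no test.

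Among genes higher in members, a gene spread over many cells was Stc2 (ENSMUSG00000020303, chromosome 11, 31357307 to 31370074), which codes for stanniocalcin 2, a secreted glycoprotein that inhibits the IGF-binding-protein protease PAPP-A. It stood at 260 CPM in members and 41.7 CPM in the other dpc16 fibroblasts, a ratio of 6.23 (95% counting interval 5.0 to 7.75), and after thinning 33.1% of members and 5.97% of the others had a UMI. Dpep1, a membrane dipeptidase that cleaves cysteinylglycine and leukotrienes, stood at 748 against 229 CPM (3.27-fold, 2.91 to 3.65) and was found in 59.3% against 27.4% of cells. Ccdc80, a secreted matrix-bound protein, stood at 1744 against 583 CPM (2.99-fold, 2.78 to 3.22). Spon1, which codes for F-spondin, was at 372 against 126 CPM (2.95-fold, 2.51 to 3.46). These 4 genes were spread over many members, with at most 7.33% of their UMIs in any 1 cell.

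Several others came from fewer UMIs. Nkain4, a membrane protein that binds the sodium pump, had the highest ratio, 8.33 (4.88 to 14.2), from 31 UMIs in members and 30 elsewhere. The secreted Wnt binders Sfrp4 (158 against 29.4 CPM) and Sfrp1 (106 against 28.8 CPM) were 5.35-fold and 3.67-fold higher. Most Sfrp4 UMIs of members lay in those with a UMI of the rule gene Plac8, and its level was much lower in the others, as given further on. Kcnj8, the pore subunit of an ATP-sensitive potassium channel, stood at 81.4 against 23.0 CPM, and its partner subunit Abcc9 at 38.1 against 15.7 CPM. Both are common pericyte markers, and the 8 mural markers summed to 133 against 81.5 CPM. The defining pericyte genes Rgs5, Cspg4 and Notch3 had 1 UMI each in members and Higd1b had 0. The nucleobase transporter Slc43a3 (168 against 48.4 CPM), the proprotein convertase Pcsk5 (71.0 against 21.7 CPM) and the glycosyltransferase Galnt15 (72.7 against 25.6 CPM) were 2.84 to 3.47-fold higher. Elovl4, an elongase of very long fatty acids, had a ratio of 6.79, but 97 of its 102 UMIs lay in 1 cell. That cell had 5.01% mitochondrial UMIs, and with a limit of 5% the log2 ratio of Elovl4 turned from 2.77 to -1.37.

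**Figure D3:**
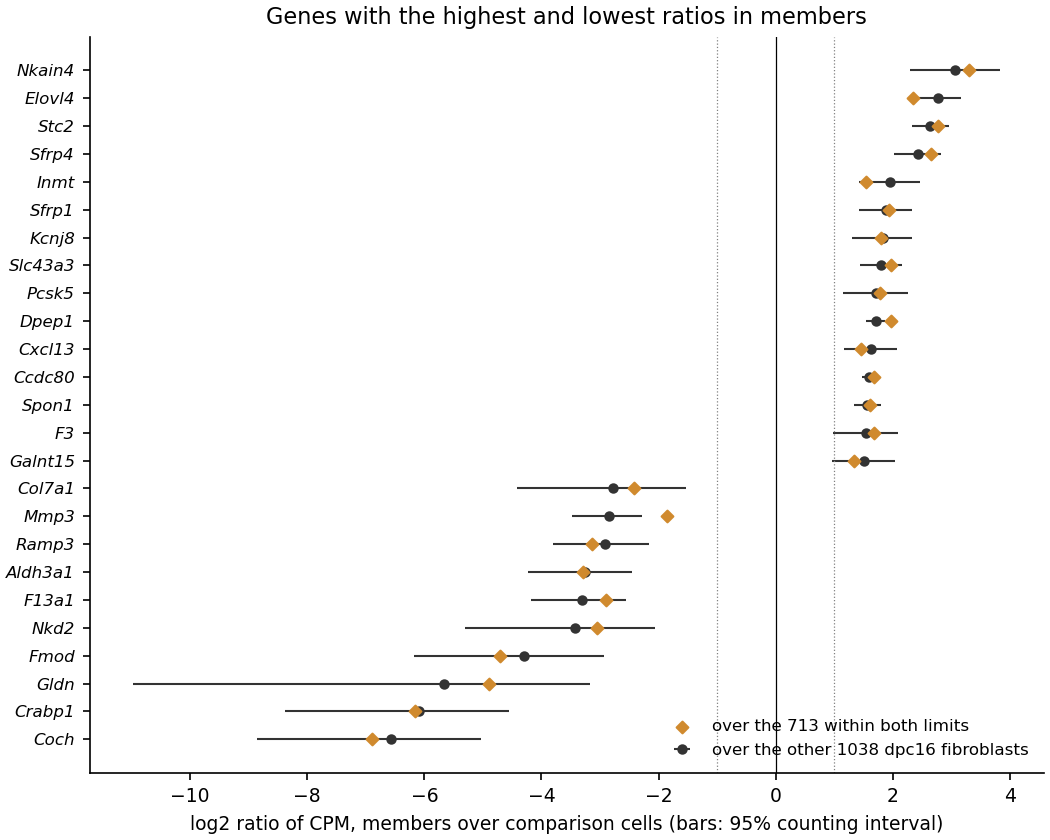
Log2 ratio of CPM in members over other dpc16 fibroblasts for the 15 highest and 10 lowest ranked genes (black, with 95% counting intervals) and over the 713 remaining fibroblasts alone (orange diamonds, 0.5 UMI added). Dotted lines mark 2-fold. Mmp3 shifts most between the comparisons, and the high value of Elovl4 rests on 1 cell.

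Genes lowest in members included matrix, retinoid and Wnt pathway genes, and the first 4 had at most 4 UMIs in all members. Coch, which codes for the matrix protein cochlin (ENSMUSG00000020953, chromosome 12, 51593341 to 51605771), had 3 UMIs in members (5.2 CPM) against 495 CPM in the others, 95.4-fold lower (32.6 to 463). Crabp1, a retinoic acid carrier of dermal papilla and upper dermis, had 3 UMIs against 356 CPM, 68.5-fold lower (23.4 to 333). Gldn, for gliomedin, had 1 UMI against 87.9 CPM, and the collagen-binding proteoglycan gene Fmod 4 UMIs against 137 CPM. Not all other fibroblasts had these transcripts: a Fmod UMI was found in 37 of 1038 of them, a Coch UMI in 131, a Gldn UMI in 209 and a Crabp1 UMI in 274, against 3, 2, 1 and 3 of 118 members. The Wnt antagonist Nkd2 (6.93 against 74.6 CPM), the aldehyde dehydrogenase Aldh3a1 (20.8 against 200 CPM), the receptor partner Ramp3 (24.2 against 184 CPM) and the anchoring fibril collagen Col7a1 (8.66 against 59.5 CPM) were 6.88 to 10.8-fold lower. F13a1 (24.2 against 239 CPM) is also a macrophage gene, at 1165 CPM in macrophages, and the other fibroblasts carried more macrophage markers, as given above; their part in the result was not tested. Mmp3, the stromelysin gene, was 7.19-fold lower and stood highest, at 1418 CPM, in the Igfbp2-rich cells that the rule left out. Against remaining fibroblasts alone its log2 ratio moved from -2.82 to -1.85.

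Several of these genes also varied with the marker sum below the 1% limit. In the 528 cells under 0.1%, Coch stood at 986 CPM, Crabp1 at 581 CPM and Fmod at 279 CPM, with the 3 markers left out of the total. In the 122 cells from 0.1 to 0.5% they stood at 35.1, 38.6 and 0 CPM. Dpep1 stood at 113 CPM in the lowest group, 286 CPM from 0.1 to 0.5%, 647 CPM from 0.5 to 1%, 457 CPM from 1 to 2%, 848 CPM from 2 to 5% and 1096 CPM in the 27 cells above 5%. Ccdc80 stood at 417, 696, 1304, 1366, 2056 and 2010 CPM over the same groups. Stc2 ran 19.7, 63.1, 135, 74.4, 474 and 196 CPM, with the highest value from 2 to 5%. Just under the limit, the 63 cells from 0.5 to 1% thus already had low Coch (3.55 CPM) and high Dpep1 and Ccdc80.

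Genes described by their function or usual place in skin gave small counts, to be read against 2.1% higher and 5.73% lower over all genes. Of 7 measured papillary and upper dermal genes, 0 were 2-fold higher and 4 lower, with a list median log2 ratio of -1.19: Col23a1, Rspo1, Trps1 and Dkk2, a Wnt antagonist at 182 against 523 CPM. Of 3 dermal papilla genes, 2 were lower, Crabp1 and Enpp2 (43.3 against 253 CPM). Of 8 reticular and hypodermal genes, 3 were higher (Sfrp4, Cxcl13 and Mgp) and 0 lower, median 0.43. All 3 were higher in members with a UMI of the rule gene Plac8 than in members without, as given further on. With a marker sum of at least 2%, the log2 ratios of Cxcl13 and Mgp were -1.16 and -0.10, while Sfrp4 stayed past 2-fold in all 11 settings. One member held 38 of the 60 Cxcl13 UMIs and one held 115 of the 440 of Mgp, and without the richest cell of each group the log2 ratios moved from 1.63 to 0.37 and from 1.38 to 1.05. Of 12 adventitial and fascial genes, 3 were higher and 0 lower, median 0.46: the annexin gene Anxa3 at 549 against 211 CPM, Opcml at 48.5 against 23.6 CPM and Sema3c at 79.7 against 39.8 CPM. Classical adventitial markers differed less: Pi16 stood at 258 against 187 CPM and Dpp4 at 52.0 against 49.6 CPM. The reticular list also named the rule genes Plac8 and Gpx3, which were not counted, so the selection bears on this list. Mfap5, Cd34 and Ly6a were named in both the reticular and the adventitial list, so the medians of these lists are not separate. Against remaining fibroblasts alone, 6 of the 7 papillary genes were at least 2-fold lower, and 3 of 8 reticular and 2 of 12 adventitial genes were higher, with Sema3c at a log2 ratio of 0.98.

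Protease and redox genes related to the selecting genes mostly lay within 2-fold. Of 15 measured cysteine protease and inhibitor genes, Ctla2b was 2-fold higher, and Ctsc (1 UMI) and the cystatin Cst6 (123 against 590 CPM) were lower. Cathepsin L, the best known target type of Ctla2a, had 736 against 741 CPM for Ctsl, Ctsb had 675 against 686 CPM, and the collagen-degrading Ctsk had 1948 against 1284 CPM (1.52-fold, 1.42 to 1.62). Of 26 measured glutathione, selenoprotein and antioxidant genes, 1 was higher, the peroxiredoxin Prdx6 (1022 against 489 CPM, 2.09-fold, 1.91 to 2.29), and 1 lower, Sod2 (52.0 against 116 CPM). Sepp1, the selenium carrier, stood at 992 against 511 CPM. The other glutathione peroxidases Gpx1, Gpx4, Gpx7 and Gpx8 had ratios from 0.680 to 1.10. The Cst6 difference rests on few cells: 65.7% of its UMIs in the other fibroblasts lay in 1 cell, and against remaining fibroblasts its log2 ratio moved from -2.25 to -0.95. Cst6 was at 1832 CPM in keratinocytes.

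Several minor collagens were lower in members. Of 28 measured collagen and collagen-processing genes 0 were higher and 6 lower, which is 21.4% against 5.73% of all genes, with a list median of -0.14: Col7a1, Col5a3 (22.5 against 127 CPM), Col6a1, Col6a2, Col4a1 and Col15a1. Of 15 elastic fibre genes 0 passed 2-fold either way, and elastin itself stood at 2528 against 1721 CPM (1.47-fold, 1.39 to 1.55). Secretory pathway genes (21 measured) and heat shock genes (14 measured) had 0 past 2-fold in either direction. Of 9 complement genes 0 passed 2-fold, with a median log2 ratio of 0.55 and C4b highest at 343 against 177 CPM. Against remaining fibroblasts alone C4b passed it, at a log2 ratio of 1.18.

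Secreted regulators of the IGF and Wnt pathways were among the genes past 2-fold. In the IGF axis 2 of 10 measured genes were higher, Stc2 and the binding protein Igfbp3 (166 against 80.2 CPM, with 26 of its 96 UMIs in 1 cell), and 2 lower, Igfbp4 (26.0 against 90.9 CPM) and Pappa, the protease that stanniocalcin 2 inhibits (5 UMIs, 8.66 against 27.3 CPM). Without the richest cell of each group the log2 ratio of Igfbp3 moved from 1.06 to 0.71, and that of Stc2 from 2.64 to 2.60. Of 7 Wnt genes, the secreted inhibitors Sfrp1 and Sfrp4 were higher, Sfrp4 mostly through members with a Plac8 UMI. The ligand Wnt5a, the enhancer Rspo1 and the inhibitor Dkk2 were lower. Of 21 TGF-beta and BMP genes 0 were higher and 2 lower, the ligands Bmp4 (4 UMIs) and Tgfb1 (17.3 against 42.6 CPM). Of 18 chemokines and cytokines 1 was higher, the B cell chemokine Cxcl13, and 6 lower, although the rule's own limit on Ccl2 and Ccl7 bears on this list: against remaining fibroblasts 2 were higher and 3 lower. The transcription factor Meox2 had 0 UMIs in members and 182 in the others, at least 7.53-fold lower against a floor of 3 UMIs.

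Hormone receptors mostly lay within 2-fold. Of 12 measured receptors 0 were higher and 1 lower, Vdr (7 UMIs). The progesterone receptor Pgr stood at 90.1 against 53.5 CPM (1.68-fold, 1.22 to 2.28), the oestrogen receptor Esr1 at 46.8 against 33.5 CPM and the glucocorticoid receptor Nr3c1 at 43.3 against 79.5 CPM. Of 10 steroid-converting enzymes, Cyp7b1 (12 UMIs) and Akr1c14 (45.03 against 10.5 CPM) were higher and 0 lower. Against remaining fibroblasts alone 9 were measured, with Akr1c14 higher and Akr1c18 (98.7 against 211 CPM) lower, and the list median moved from 0.22 to -0.07. The prolactin receptor Prlr had 4 UMIs in members, under the limit to be measured. The glandular kallikreins, near-identical genes whose UMIs may be shared, had 0 of 4 past 2-fold: Klk1 stood at 334 against 391 CPM and Klk1b24 at 438 against 369 CPM.

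**Figure D4:**
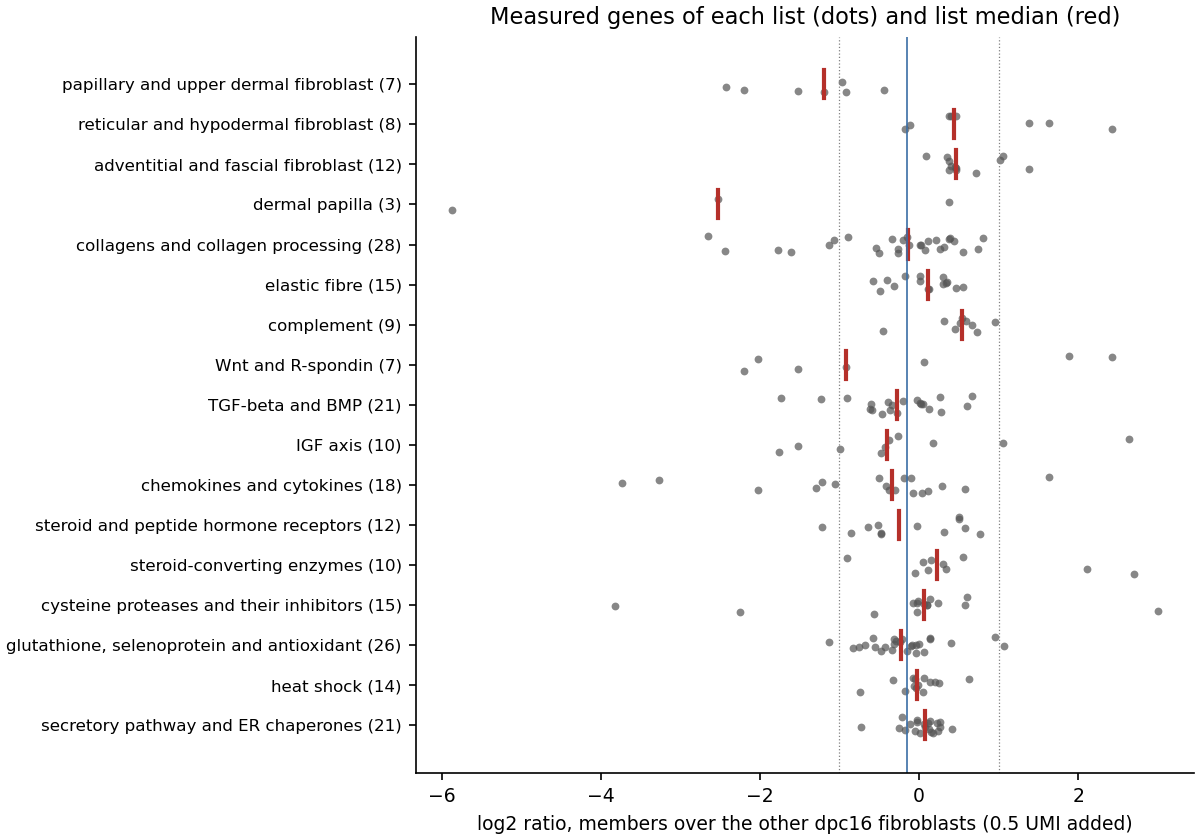
Log2 ratio of members over other dpc16 fibroblasts for measured genes of 17 lists without rule genes (dots, number measured in brackets), with list medians in red, 2-fold as dotted lines and the median of all 5182 genes as a blue line at -0.15. All 7 papillary genes lie below the all-gene median, and all 12 adventitial genes and most complement genes above it.

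Members differed among themselves in a set of genes that went with Plac8. The following split by Plac8 was chosen after values were seen, and Plac8 is a rule gene, so it is descriptive. The 20 members with a Plac8 UMI and the 98 without had similar depth, with medians of 4775 and 4663.5 UMIs. Inmt, an indolethylamine N-methyltransferase, stood at 473 CPM (347 to 629) in the former, in 10 of 20 cells, and had 1 UMI in the latter. F3, the tissue factor gene, stood at 352 against 6.28 CPM. The interferon-inducible gene Ifi27l2a stood at 1086 against 23.0 CPM. Igfbp3 stood at 684 against 58.6 CPM, Mgp, the matrix Gla protein gene, at 2223 against 458 CPM, and Sfrp4 at 664 against 52.3 CPM. Cxcl13 stood at 533 against 14.6 CPM, but 71.7% of its UMIs in Plac8-bearing members lay in 1 cell, and 52.0% for Mgp.

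In the other direction, Ctla2a itself stood at 14313 CPM in Plac8-bearing members and 36516 CPM in those without. A member without Plac8 must reach the 1% limit through Ctla2a and Gpx3, so the rule itself bears on this contrast. Stc2 stood at 171 CPM (99.6 to 274) against 278 CPM (233 to 330), and Smoc2, a calcium-binding matrix protein gene, at 614 against 1427 CPM. Dkk2 had 0 UMIs in 20 cells against 220 CPM in 98. Dpep1 (885 and 720 CPM), Spon1 (322 and 383 CPM) and the absence of Coch (0 and 3 UMIs) were shared by both. The 20 Plac8-bearing members held 47 of 48 Inmt UMIs of all members, 35 of 38 of F3, 53 of 60 of Cxcl13, 68 of 96 of Igfbp3 and 221 of 440 of Mgp. With a marker sum of at least 2%, reached by 76 cells, the log2 ratios of Inmt, Cxcl13, F3, Igfbp3 and Mgp over the other fibroblasts were -1.06, -1.16, -0.35, -0.10 and -0.10.

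The same Plac8-linked genes appeared outside the members. Of the 713 remaining fibroblasts, 36 had a Plac8 UMI, and in these Inmt stood at 405 CPM against 6.41 CPM in the 677 without. Cxcl13 stood at 405 against 16.2 CPM, Ifi27l2a at 473 against 30.4 CPM, F3 at 211 against 9.45 CPM and Sfrp4 at 285 against 9.79 CPM. Stc2, by contrast, had 2 UMIs (11.4 CPM) in the 36 cells, against 171 CPM in Plac8-bearing members. Gpx3 stood at 3576 CPM in the 36 cells, near its 3492 CPM in members without Plac8, and Ctla2a at 776 CPM.

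**Figure D5:**
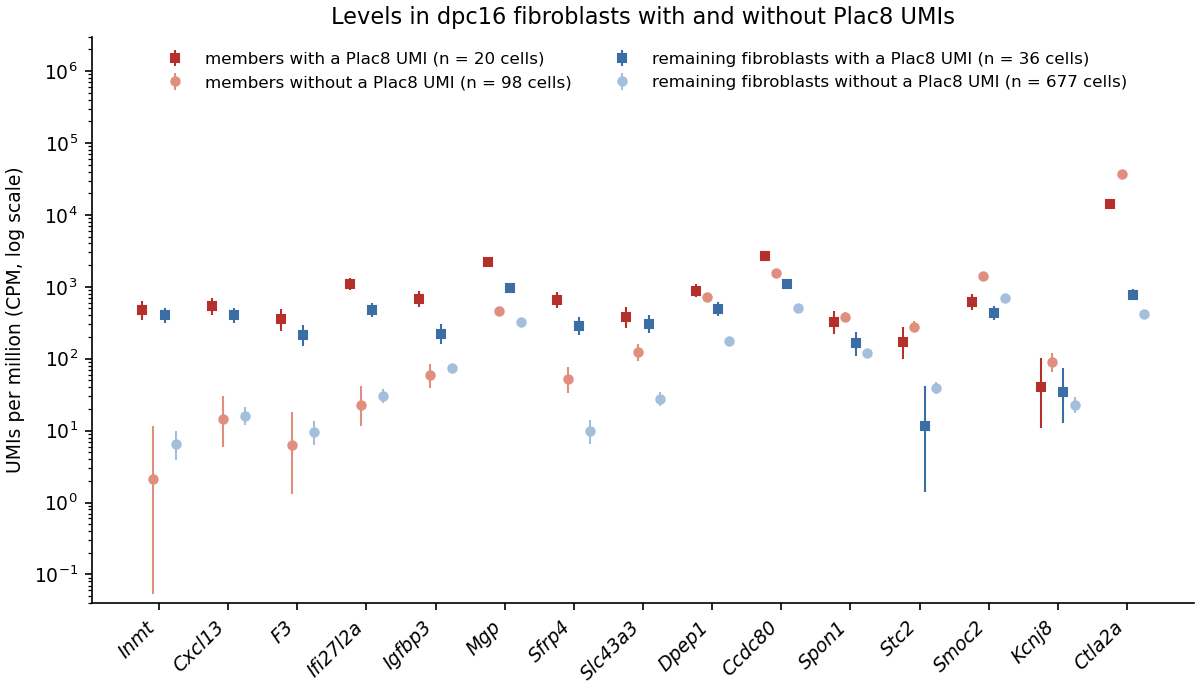
CPM (logarithmic axis, exact 95% Poisson intervals) of 15 genes in dpc16 members (reds) and remaining fibroblasts (blues), each with (squares) and without (circles) a Plac8 UMI. From Inmt to Sfrp4 squares lie above circles in members and in remaining cells, while Stc2 is higher in both sets of members than in remaining cells and Ctla2a, which defines the members, is shown for scale.

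Some cells that reached the marker sum lay beyond the limit on inflammatory genes. Of 159 dpc16 fibroblasts that reached the marker sum, 41 were left out by the limit on Ccl2, Ccl7 and Tnfaip6 and 0 by that on Igfbp2. In these 41 cells Ctla2a stood at 35911 CPM and Gpx3 at 3713 CPM, near the members' levels, and Plac8 at 26.8 CPM. The same marker sum chose these cells, so their levels of the 3 marker genes are given as a description. Dpep1 stood at 869 CPM, Ccdc80 at 1204 CPM, Spon1 at 285 CPM and Stc2 at 160 CPM, each above the remaining fibroblasts (192, 547, 122 and 37.9 CPM). Coch had 0 CPM and Crabp1 8.92 CPM. Inmt and Cxcl13 were at 0. In all, 11 of the 15 highest-ranked genes were higher and 10 of the 10 lowest-ranked genes lower in the 41 cells than in remaining fibroblasts.

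Outside the members, dpc16 fibroblasts still differed from the other stages in part of these genes. Stc2 stood at 41.7 CPM in the 1038 other dpc16 fibroblasts, 3.54 CPM in NP (1 UMI) and 7.0 CPM in dpp42 (2 UMIs). Dpep1 stood at 229 CPM against 56.7 CPM in NP, 4.04-fold (2.48 to 7.09), and 49.0 CPM in dpp42, 4.68-fold (2.77 to 8.59). Spon1 stood at 126 against 21.3 CPM in NP, 5.93-fold (2.71 to 16.2), and 31.5 CPM in dpp42. Ccdc80 differed less, at 583 against 333 and 392 CPM. Sfrp1 did not follow: 28.8 CPM in the other dpc16 fibroblasts, 39.0 CPM in NP (11 UMIs) and 24.5 CPM in dpp42 (7 UMIs), with both counting intervals of the ratio including 1. Coch, nearly missing from members, stood at 493 CPM in NP fibroblasts and 91.0 CPM in dpp42. The 1038 others include the 41 marker-rich inflammatory cells and the cells just under the 1% limit. In the 528 cells under 0.1%, Stc2 stood at 19.7, Dpep1 at 113, Spon1 at 107 and Ccdc80 at 417 CPM, with the 3 markers left out of the total. The cell mix also differed: 54 of 101 NP and 25 of 110 dpp42 fibroblasts were inflammatory, against 240 of these 1038. Stage, library and depth cannot be told apart here, since each stage was 1 library.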

How the data were processed

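Dermal cells of abdominal skin were captured with Chromium version 2 chemistry after whole skin was parted in 0.25% trypsin for 30 min and filtered at 40 and 20 µm, per the labels' protocols. Per the submitters' processing notes, Cell Ranger 2.2.0 and mm10 (GRCm38) were used. Each deposited matrix holds UMI counts as whole numbers that were not normalized. How barcodes were called as cells, and the gene annotation, are not given in the labels. The submitters stated 1289, 3650 and 1081 cells. Of 28693 gene identifiers, 28339 matched GENCODE M21, from which coordinates of GRCm38 were taken, and 354 did not.

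Members were found by the rule given in the report. The members and all 43 gene lists were chosen with earlier results of these data known. UMIs were summed per group and expressed per 1000000 (CPM), with exact 95% Poisson intervals. Ratios have exact conditional binomial intervals, and shares of cells Clopper-Pearson intervals. UMIs of 1 cell are not independent, so true errors are wider. Log2 ratios have 0.5 UMI added to both sums. Keratinocytes, blood endothelial cells and macrophages were taken by marker sums of 2, 0.3 and 0.5% among cells under 1% for the fibroblast genes. Lymphatic endothelial cells were not kept out of the endothelial class. Shares of cells were compared after thinning each cell to 1900 UMIs, below the lowest total of any barcode (1908). Doublets were not removed. One alternative leaves out cells with at least 1% of UMIs from markers of these classes. Nearest neighbours used log counts per 10000 and 20 principal components.

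Named genes are the 15 highest and 10 lowest log2 ratios among 2271 genes reaching 50 CPM in members or in the other fibroblasts. Rule, mitochondrial, ribosomal, haemoglobin and predicted genes were not ranked. Nor were 70 genes whose level in the higher group was under 0.2 times that of keratinocytes, the endothelial class or macrophages. The rule adds the 12 rule genes, EGFP, Ctla2b and up to 4 members of each list with the largest difference. Other list members, such as Pdgfra, Pi16 and Ctsl, were added after their values were seen. One listed gene is not reported here and was left out of its list's counts. The intervals were tested on simulated data before use. Scripts ran in Python 3.11.15 with pandas 2.3.3 and numpy 2.4.6, statistics came from scipy 1.17.1, neighbours from scikit-learn 1.9.0, alignments from Biopython 1.88 and plots from matplotlib 3.10.9.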

Additional observations from a re-analysis of the deposited data

How the results depend on the processing

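Each stage was 1 library, so no replicate could be left out, and no paired analysis was possible because the groups share no second replicate. The number of dpc16 members, 118, became 181 with a marker sum of 0.5%, 76 with 2% and 15 without Ctla2a in the sum. NP had 1 member without the inflammatory and Igfbp2 limits and 1 after thinning, and dpp42 had 1 at 0.5%. The 109 genes at least 2-fold higher and 297 lower became 30 and 47 with genes measured at 100 CPM, 759 and 1888 with no CPM filter, 341 and 868 at 1.5-fold, and 1308 and 818 with the 15 members found without Ctla2a. Over dpc16 fibroblasts, Ctla2a moved from 5528 to 6132 CPM with at most 5% mitochondrial UMIs and to 6221 CPM with fibroblast genes of at least 3%, and Gpx3 from 1226 to 1349 and 1327 CPM. Plac8 in NP was 0 at 3%. The counts of higher and lower genes were 110 and 300 without cells of at least 10 haemoglobin UMIs, and 118 and 313 without the 41 marker-rich inflammatory cells, and 59 and 461 without the richest cell of each group for each gene, all chosen after seeing the data. The neighbour share was 39.6% with 30 neighbours.

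Log2 ratios of some genes changed sign. With a marker sum of 2% they were -1.16 for Cxcl13, -0.35 for F3, -0.10 for Igfbp3, -1.06 for Inmt and -0.10 for Mgp. Elovl4 was -1.37 with at most 5% mitochondrial UMIs, -0.80 with fibroblast genes of at least 3% and -0.91 without Ctla2a in the sum. Also without Ctla2a, Isg15 was 1.00, Tap1 0.80, Stmn1 0.15, Wnt5a 0.14, Mlana -0.52, Hba-a1 -0.80, Hba-a2 -1.69, Hbb-bs -1.71 and Hbb-bt -2.65. Without cells of at least 10 haemoglobin UMIs, Hba-a1 was -0.27, Hba-a2 -0.77 and Hbb-bt -1.86. Without the richest cell of each group, Elovl4 was -1.15, Hba-a1 -0.46, Hba-a2 -0.96, Hbb-bs -0.006 and Hbb-bt -1.89. Krtdap was 0.50 without cells carrying other classes' markers. The cause was not tested, except that 1 member held most UMIs of Elovl4 and of the haemoglobin genes, and also of Cxcl13. At 118 cells, genes under about 20 CPM could not be compared.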
